A study of Homo sapiens with 6 samples.

Results

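The genes described here make and assemble ribosomes. They are 55 named genes of RNA polymerase I, RNA polymerase III and the nucleolar factors that process ribosomal RNA, chosen by symbol as a list of known members. All 55 were found among the 26228 rows of a deposited expression table (FPKM, read fragments scaled to transcript length and library size). RNA came from AsPC-1 cells, a human line established from a pancreatic adenocarcinoma. One group received 6-diazo-5-oxo-l-norleucine, written DON here, which resembles glutamine and inactivates many enzymes that use it. The other received vehicle, and both were kept for 24 h in medium without serum, with 3 libraries per group. The labels give no dose. The labels do not say whether the libraries came from separate cultures, so each p-value is set against a spread among libraries that may be technical. The comparison asks which transcripts differ when glutamine use is blocked.

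Ribosome production starts in the nucleolus, where RNA polymerase I transcribes the precursor of 3 of the ribosomal RNAs, while RNA polymerase III makes the remaining small one and the transfer RNAs. Small nucleolar ribonucleoproteins (snoRNPs) modify the precursor, and separate sets of factors then cut and fold the parts of the small and the large ribosomal subunit. This production is a large user of nucleotides, whose synthesis takes nitrogen from glutamine. Poly(A) RNA was sequenced, so the messages of the polymerase subunits and factors were measured, and the ribosomal RNA and transfer RNA that they make were not. FPKM is a share of each library's messages, and in bulk RNA a change in the number of expressing cells and a change in message per cell cannot be told apart.

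FPKM sums lay between 525200 and 556950 per DON library and between 528916 and 547510 per vehicle library. Rows at the lowest value, 0.01 FPKM, made up 45.8% of vehicle 1 and 40.3% to 42.2% of the other libraries. The part of this difference in the results below was not tested. Counts were not used, the depth of the libraries is unknown, and intervals for counting error are therefore not given. Markers of pancreatic duct epithelium were present in all libraries, with all 7 usable markers of 9 at 1 FPKM or more and sums of 2530 to 3480 FPKM in DON and 2817 to 3640 FPKM in vehicle. Of the other markers, 6 of 7 for fibroblasts, 4 of 6 for leukocytes and 4 of 4 for endothelium stayed below 1 FPKM in all 6 libraries. LUM, LYZ and CD68 were the exceptions, with LUM at 88.1 to 124 FPKM in DON and 141 to 171 FPKM in vehicle, LYZ at 75.6 to 112 FPKM in DON and 207 to 328 FPKM in vehicle, and CD68 at 25.9 to 40.2 FPKM in DON and 16.6 to 28.0 FPKM in vehicle. The part of such markers in the results below was not tested.

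The 4 promoters printed here belong to the called genes with the largest falls (POLR3K, POLR1A) and the largest rises (TAF1D, GNL2) among those with a usable promoter entry. They are RefSeq sequences of GRCh38.p14, 5′ to 3′ on the strand of the gene, with 250 bases before and 50 after the start of the gene. POLR3K is at chr16:53559-53858, POLR1A at chr2:86105837-86106136, TAF1D at chr11:93741446-93741745 and GNL2 at chr1:37595888-37596187, each on the minus strand. Capitals mark matches to the E-box CACGTG, the sequence bound by MYC and related factors, or to the ETS-type sequence CCGGAAG.
POLR3K: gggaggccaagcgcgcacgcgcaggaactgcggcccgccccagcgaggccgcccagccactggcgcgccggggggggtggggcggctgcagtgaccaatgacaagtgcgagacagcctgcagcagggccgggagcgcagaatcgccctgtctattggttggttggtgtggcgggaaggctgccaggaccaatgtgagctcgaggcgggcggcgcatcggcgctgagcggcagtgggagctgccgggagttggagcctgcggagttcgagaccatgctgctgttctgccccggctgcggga
POLR1A: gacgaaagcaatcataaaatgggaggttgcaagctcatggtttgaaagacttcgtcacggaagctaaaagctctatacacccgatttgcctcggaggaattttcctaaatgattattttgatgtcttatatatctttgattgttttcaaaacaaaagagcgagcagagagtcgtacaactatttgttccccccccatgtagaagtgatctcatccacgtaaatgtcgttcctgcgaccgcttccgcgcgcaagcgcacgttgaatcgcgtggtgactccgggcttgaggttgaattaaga
TAF1D: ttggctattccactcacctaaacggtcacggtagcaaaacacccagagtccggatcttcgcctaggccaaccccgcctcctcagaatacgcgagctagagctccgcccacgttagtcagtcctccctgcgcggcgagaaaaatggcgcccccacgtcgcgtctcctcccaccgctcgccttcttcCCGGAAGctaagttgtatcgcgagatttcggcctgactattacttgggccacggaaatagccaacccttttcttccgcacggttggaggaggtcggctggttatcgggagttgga
GNL2: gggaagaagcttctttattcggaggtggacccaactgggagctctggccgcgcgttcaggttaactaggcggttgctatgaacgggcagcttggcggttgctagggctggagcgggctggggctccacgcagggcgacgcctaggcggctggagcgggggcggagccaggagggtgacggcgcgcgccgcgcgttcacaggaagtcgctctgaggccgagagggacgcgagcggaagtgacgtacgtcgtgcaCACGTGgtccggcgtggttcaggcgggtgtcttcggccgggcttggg
TAF1D held the ETS-type sequence starting 65 bases before the start site. GNL2 held the E-box from base 4, with the start site as base 1. POLR3K and POLR1A held neither sequence in this window.

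As a group these genes did not move one way. A gene was tested where 3 or more of the 6 libraries had 1 FPKM or more, which held for all 55 and for 11468 genes in all. The test was limma on log2(FPKM + 1), adjusted over all tested genes. Of the 55, 13 rose and 9 fell with DON at adjusted p under 0.05, and 33 did not pass. The 22 calls are 40.0% of the list, beside 38.9% of all tested genes called in either direction, 18.3% higher and 20.6% lower. A share this close to that of all genes is no result about the list. The libraries of DON and vehicle did not overlap for 26 of the 55 genes (47.3%), beside 51.5% of all tested genes. The median log2 fold change of the list was -0.06, beside -0.012 over all tested genes. The median absolute log2 fold change was 0.26 for the list and 0.31 for all tested genes. At least 2-fold calls on this scale were made for TAF1D and POLR3K (3.64% of the list), beside 6.99% of all tested genes.

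Genes of the same complex were called in both directions, which, with the shares of all genes given above, is a description and not a property of the list. Called rises were 1.21-fold to 2.18-fold by ratio of mean FPKM and called falls 1.34-fold to 2.30-fold. Polymerase I genes had 4 of 8 higher and 1 lower (median log2 fold change 0.26), and polymerase III genes had 3 of 7 higher and 1 lower (median 0.26). The snoRNP genes had 1 of 7 higher and 2 lower (median -0.14), and 0 of 4 abundant nucleolar proteins passed either way (median -0.09). Small-subunit factors had 3 of 16 higher and 2 lower (median 0.01), and large-subunit factors had 2 of 13 higher and 3 lower (median -0.10). Differences between these classes were described and not tested. With no filter on low values, and so 26183 genes in the fit, 11 of the 22 calls were lost at the same fold changes. They are POLR1D, RRN3, POLR3C, POLR3D, POLR3K, NHP2, GAR1, UTP3, NOC4L, BOP1 and RRS1, at limma adjusted p of 0.0506 to 0.181.

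**Figure D1:**
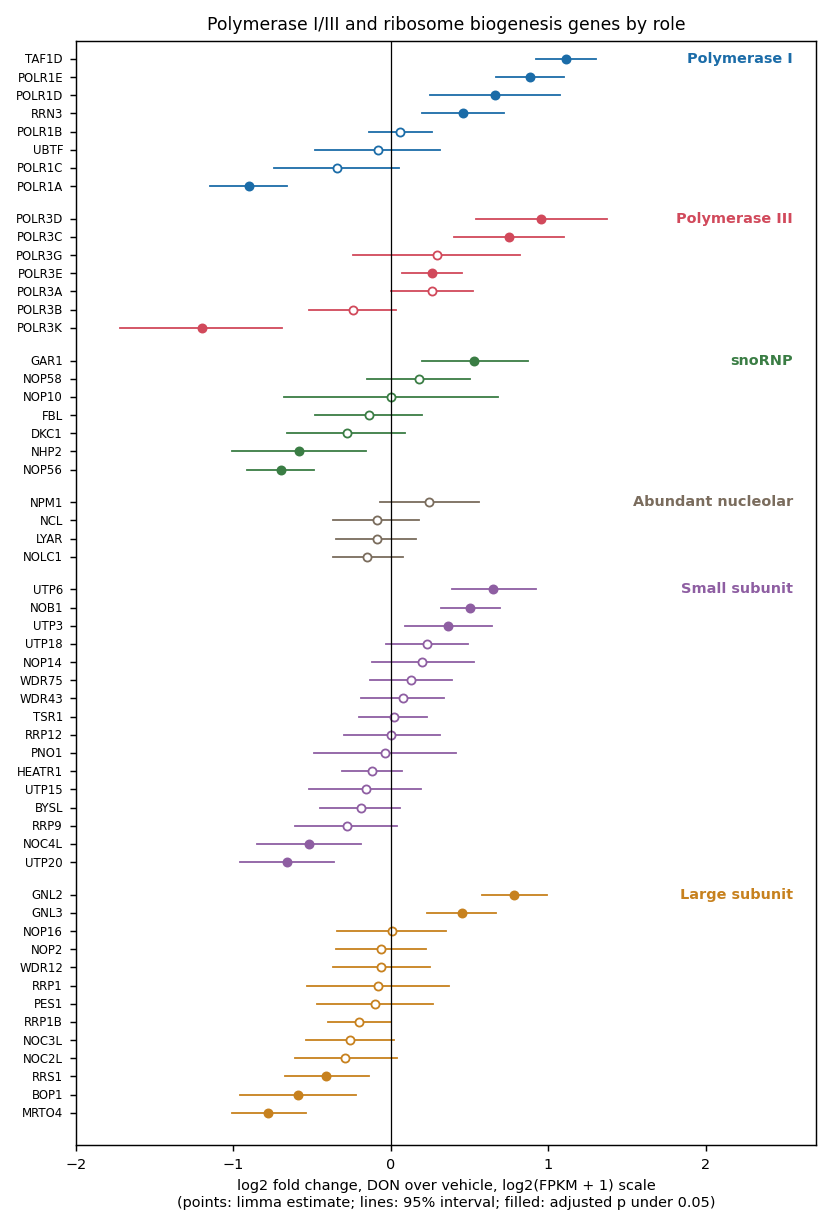
Log2 fold change of the 55 genes, DON over vehicle, on the log2(FPKM + 1) scale, with 95% intervals from limma and 3 libraries per group. Filled points passed at adjusted p under 0.05, and in all classes but the abundant nucleolar proteins filled points lie on both sides of 0.

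Among polymerase I subunits, the gene of the largest subunit fell. POLR1A, which forms the catalytic core with POLR1B, had 2.84, 2.43 and 2.33 FPKM in DON, against 5.35, 5.54 and 5.94 FPKM in vehicle. Each DON library was below each vehicle library, and POLR1A averaged 2.53 ± 0.271 FPKM in DON and 5.61 ± 0.300 FPKM in vehicle (SD, n = 3 each). The log2 fold change was -0.90 ± 0.10 (SE, limma adjusted p = 0.000851). POLR1B, the second-largest subunit, had 10.3, 10.4 and 10.7 FPKM in DON, against 10.3, 9.34 and 10.4 FPKM in vehicle. Its groups overlapped, and its 95% interval ran from -0.14 to 0.26 (limma adjusted p = 0.601). Within each library the ratio of POLR1A to POLR1B was 0.276, 0.234 and 0.218 in DON, against 0.520, 0.593 and 0.573 in vehicle.

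POLR1E, the subunit that pairs with POLR1G on the outside of polymerase I, rose. It had 27.7, 25.8 and 27.3 FPKM in DON, against 13.3, 13.6 and 15.5 FPKM in vehicle (log2 fold change 0.88 ± 0.09 SE, limma adjusted p = 0.000508). The groups were clearly apart, with a 1.90-fold higher mean in DON. Its partner POLR1G, listed under the older symbol CD3EAP, had 2.88, 3.34 and 3.16 FPKM in DON, against 4.01, 3.92 and 4.90 FPKM in vehicle. That fall passed narrowly (log2 fold change -0.35, limma adjusted p = 0.0476), and leaving out any 1 library ended it, at adjusted p of 0.0636 to 0.119, as did the GC correction (0.183) and both other scalings. The ratio of POLR1E to POLR1G was 9.62, 7.73 and 8.65 in DON, against 3.33, 3.48 and 3.16 in vehicle.

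POLR1C and POLR1D form the pair of subunits that polymerases I and III share. POLR1D had 97.3, 143 and 125 FPKM in DON, against 66.4, 71.7 and 91.0 FPKM in vehicle, with all DON libraries above all vehicle libraries. It rose (log2 fold change 0.66 ± 0.17 SE, limma adjusted p = 0.0225). The call was lost without DON 2 (0.0809), DON 3 (0.0650), vehicle 1 (0.0763) or vehicle 2 (0.0730). POLR1C had 21.2, 19.9 and 16.8 FPKM in DON, against 29.7, 26.1 and 19.4 FPKM in vehicle. DON 1 and DON 2 lay above vehicle 3, and the change did not pass (-0.34, limma adjusted p = 0.143), but it passed as lower without vehicle 3 (adjusted p = 0.0248). The ratio of POLR1D to POLR1C overlapped between the groups, at 4.58 to 7.43 in DON and 2.23 to 4.69 in vehicle.

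The factors that bring polymerase I to the ribosomal genes also split. TAF1D, a subunit of the promoter selectivity factor SL1, had the largest rise of the list. It stood at 120, 125 and 130 FPKM in DON, against 54.7, 59.3 and 58.1 FPKM in vehicle (log2 fold change 1.11 ± 0.08 SE, limma adjusted p = 0.000135). All DON libraries lay far above all vehicle libraries, and the mean was 2.18-fold higher. RRN3, which links polymerase I to SL1, had 44.6, 42.3 and 36.7 FPKM in DON, against 30.2, 31.9 and 26.8 FPKM in vehicle. It rose (0.46 ± 0.11 SE, limma adjusted p = 0.0152), a call lost without DON 2 (0.0659). UBTF, which binds along the ribosomal genes, had 22.6, 15.9 and 16.4 FPKM in DON, against 21.0, 21.3 and 15.9 FPKM in vehicle. Its libraries were mixed, with DON 1 near vehicle 1 and 2 and the other DON libraries near vehicle 3 (limma adjusted p = 0.718). Of the other SL1 subunits, TAF1A had 12.8, 11.5 and 11.5 FPKM in DON, against 9.94, 7.72 and 5.93 FPKM in vehicle, and rose (limma adjusted p = 0.0328). Leaving out any library but vehicle 1 ended the TAF1A call, at adjusted p up to 0.0853. TAF1C had 3.98, 3.22 and 3.88 FPKM in DON, against 5.95, 5.91 and 5.35 FPKM in vehicle, and fell (limma adjusted p = 0.00901). With a correction for GC content TAF1C was no longer called, with a log2 fold change of -0.26 in place of -0.52 (limma adjusted p = 0.0912). TAF1A was not called either, at 0.51 in place of 0.57 (0.0558). TAF1B, given here after its values were seen, had 13.6, 13.8 and 12.3 FPKM in DON, against 16, 17.4 and 17.1 FPKM in vehicle, and fell (-0.33 ± 0.09 SE, limma adjusted p = 0.0238). It stayed called with the GC correction (-0.42, adjusted p = 0.0108) and was lost without DON 2, DON 3, vehicle 2 or vehicle 3, at adjusted p up to 0.0907.

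**Figure D2:**
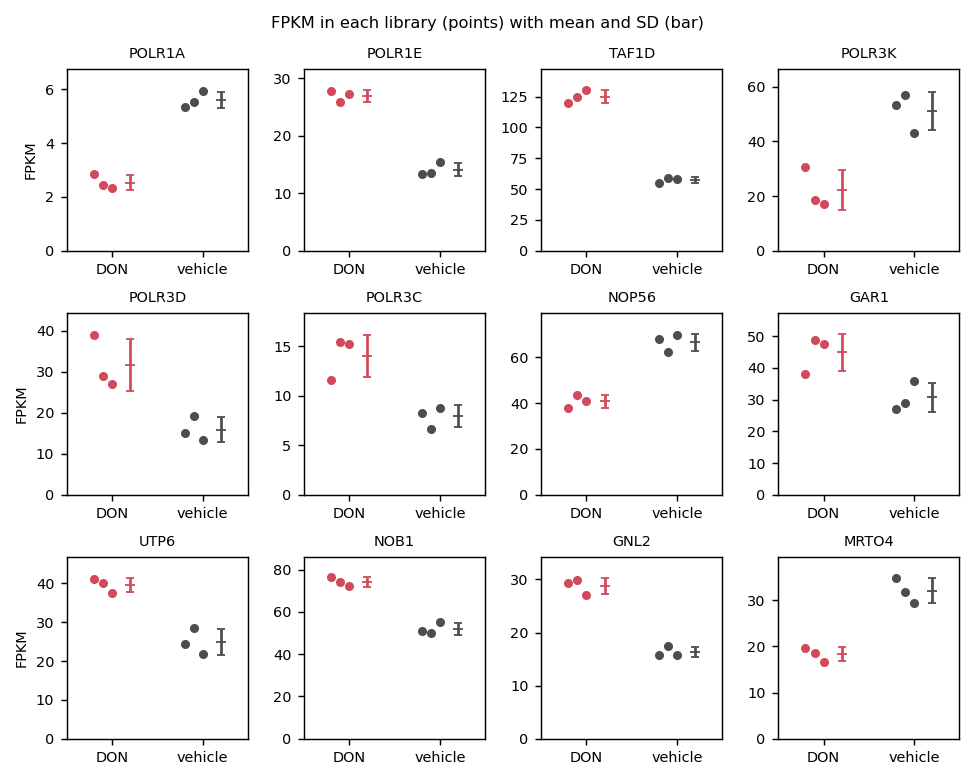
FPKM of 12 called genes in each of the 3 DON and 3 vehicle libraries (points), with mean and SD beside them, on linear axes that start at 0. In all 12 panels the DON points and the vehicle points do not overlap, with POLR1A, POLR3K, NOP56 and MRTO4 lower in DON.

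In polymerase III, 1 small subunit fell while others rose. POLR3K, a small subunit needed for transcript cleavage and termination, had 30.6, 18.7 and 17.2 FPKM in DON, against 53.2, 56.8 and 43.2 FPKM in vehicle. All 3 DON libraries were lower, and DON 1 was the highest of them. POLR3K averaged 22.2 ± 7.31 FPKM in DON and 51.1 ± 7.03 FPKM in vehicle, the largest fall of the list (log2 fold change -1.20 ± 0.22 SE, limma adjusted p = 0.00552, or 0.0543 with no filter). POLR3D, which pairs with POLR3E, had 38.9, 29 and 27.0 FPKM in DON, against 15.0, 19.2 and 13.4 FPKM in vehicle. It rose 2.0-fold (0.95 ± 0.18 SE, limma adjusted p = 0.00591, or 0.0518 with no filter), with no overlap. The ratio of POLR3K to POLR3D was 0.786, 0.646 and 0.638 in DON, against 3.55, 2.96 and 3.23 in vehicle, so the order of these 2 messages on the FPKM scale was opposite in the groups.

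POLR3E had 13.6, 14.7 and 13.6 FPKM in DON, against 11.2, 11.7 and 11.7 FPKM in vehicle. The groups did not overlap and the rise passed (log2 fold change 0.26, limma adjusted p = 0.0403), but leaving out any 1 library ended it, at adjusted p of 0.0533 to 0.164. POLR3C, of the subcomplex that opens DNA at initiation, had 11.6, 15.4 and 15.2 FPKM in DON, against 8.30, 6.67 and 8.81 FPKM in vehicle. It rose 1.77-fold (0.75 ± 0.15 SE, limma adjusted p = 0.00726, or 0.0506 with no filter). The 2 largest subunits did not pass. POLR3A averaged 6.46 ± 0.638 FPKM in DON and 5.22 ± 0.464 FPKM in vehicle (limma adjusted p = 0.0983), and POLR3B averaged 3.74 ± 0.467 FPKM in DON and 4.60 ± 0.415 FPKM in vehicle (0.143).

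POLR3G and POLR3GL encode alternative versions of 1 subunit, POLR3G being known from stem cells and tumours. POLR3G had 6.31, 6.00 and 5.91 FPKM in DON, against 7.40, 3.49 and 4.15 FPKM in vehicle. Vehicle 1 stood apart from the other vehicle libraries and above all DON libraries. The difference did not pass (log2 fold change 0.29, limma adjusted p = 0.343), but POLR3G was called higher without vehicle 1 (adjusted p = 0.0144). POLR3GL had 36.8, 41.1 and 40.2 FPKM in DON, against 20.1, 26.0 and 28.6 FPKM in vehicle, and rose (0.65 ± 0.14 SE, limma adjusted p = 0.00925). The log2 ratio of POLR3G to POLR3GL was -2.69 ± 0.13 in DON and -2.37 ± 0.81 in vehicle (SD, n = 3 each; exact permutation p = 1.0, two-sided). In this design an exact permutation test cannot give a p below 0.1.

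**Figure D3:**
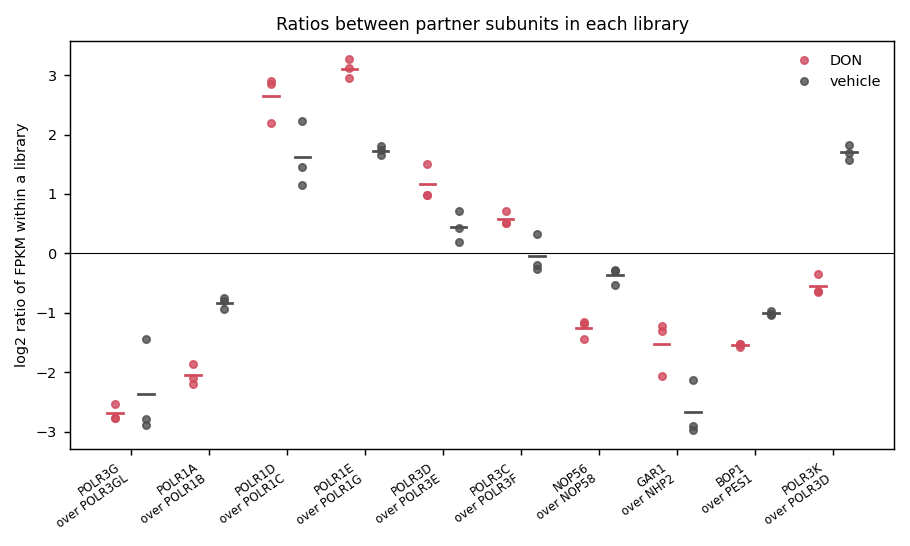
Log2 ratio of FPKM between 2 genes in each library, for 10 pairs of subunits of the same complex or alternatives of 1 subunit, with DON left of vehicle and short lines at the means. For 8 pairs the DON and vehicle libraries do not overlap, and the pairs POLR3G over POLR3GL and POLR1D over POLR1C overlap.

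The pair POLR3G and POLR3GL was set as a comparison for its known biology. The other 9 of these 10 pairs were chosen after their values were seen, so their ratios are a description. For the 8 pairs without overlap the exact permutation p was 0.1, the smallest that 3 against 3 libraries can give. None of the 10 pairs can therefore pass a threshold of 0.05.

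The snoRNP proteins are the shared cores of 2 kinds of particle. In box C/D particles, which methylate ribosomal RNA, NOP56 fell. It had 38.0, 43.4 and 40.8 FPKM in DON, against 67.8, 62.5 and 69.7 FPKM in vehicle (log2 fold change -0.70 ± 0.09 SE, limma adjusted p = 0.00124). The DON libraries were all below the vehicle libraries, at 61.1% of their mean. Its partner NOP58 averaged 97.8 ± 11.9 FPKM in DON and 86.7 ± 12.8 FPKM in vehicle (limma adjusted p = 0.344), with overlap. The methyltransferase FBL had 182, 154 and 139 FPKM in DON, against 197, 180 and 148 FPKM in vehicle, also with overlap (limma adjusted p = 0.476). The ratio of NOP56 to NOP58 was 0.439, 0.449 and 0.370 in DON, against 0.813, 0.825 and 0.691 in vehicle.

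In box H/ACA particles, which convert uridine to pseudouridine, GAR1 and NHP2 moved in opposite directions. GAR1 had 38.2, 48.9 and 47.7 FPKM in DON, against 27.1, 29.1 and 36.0 FPKM in vehicle, with no overlap. It rose (log2 fold change 0.53 ± 0.14 SE, limma adjusted p = 0.0228). NHP2 had 160, 121 and 111 FPKM in DON, against 214, 217 and 157 FPKM in vehicle. DON 1 lay above vehicle 3, so its groups overlapped, and it fell (-0.58 ± 0.18 SE, limma adjusted p = 0.0383). Without DON 2, DON 3, vehicle 1 or vehicle 2 both calls were lost, at adjusted p up to 0.0894 for GAR1 and 0.123 for NHP2. DKC1, the pseudouridine synthase, had 74.2, 62.6 and 54.5 FPKM in DON, against 83.7, 86.4 and 63.4 FPKM in vehicle, and did not pass (limma adjusted p = 0.200). NOP10 averaged 144 FPKM in both groups, with an SD of 43.4 in DON and 45.2 in vehicle and a 95% interval of -0.68 to 0.68, so a change of moderate size could not be detected for it.

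The abundant nucleolar proteins showed no called change. NPM1, a chaperone of ribosome assembly and the most abundant message of the list, had 1242, 1146 and 965 FPKM in DON, against 988, 1015 and 824 FPKM in vehicle. DON 3 lay below vehicle 1 and 2 (log2 fold change 0.24, 95% interval -0.07 to 0.56, limma adjusted p = 0.184). NPM1 has processed copies in the genome, so its FPKM may depend on how reads were assigned. NCL, which binds the precursor RNA, had 384, 333 and 328 FPKM in DON, against 377, 413 and 328 FPKM in vehicle (95% interval -0.37 to 0.18, limma adjusted p = 0.554). NOLC1, a snoRNP chaperone, averaged 36.0 ± 1.83 FPKM in DON and 40.0 ± 3.48 FPKM in vehicle. LYAR averaged 24.7 ± 2.47 FPKM in DON and 26.4 ± 2.42 FPKM in vehicle.

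Among factors of the small subunit, a late enzyme and an early factor rose, and an early scaffold fell. NOB1, the nuclease that makes the final cut at the end of the small-subunit RNA, had 76.7, 74.0 and 72.1 FPKM in DON, against 51.0, 50 and 55.4 FPKM in vehicle. The groups were apart, and NOB1 rose 1.42-fold (log2 fold change 0.50 ± 0.08 SE, limma adjusted p = 0.00309). UTP6, of the early processome, had 41.1, 40.2 and 37.5 FPKM in DON, against 24.3, 28.5 and 21.9 FPKM in vehicle, and rose (0.65 ± 0.11 SE, limma adjusted p = 0.00426). UTP20, a large scaffold of the processome, had 4.42, 4.24 and 3.50 FPKM in DON, against 7.69, 7.33 and 5.95 FPKM in vehicle, and fell (-0.66 ± 0.13 SE, limma adjusted p = 0.00727). No library of UTP6 or UTP20 crossed to the other group.

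NOC4L and UTP3 were less firm. NOC4L, which pairs with NOP14, had 11.5, 9.56 and 8.25 FPKM in DON, against 12.5, 16 and 14.6 FPKM in vehicle (log2 fold change -0.52 ± 0.14 SE, limma adjusted p = 0.0255). Its fall was lost without DON 2 (0.0848), DON 3 (0.0783), vehicle 2 (0.0860) or vehicle 3 (0.0554), and with the GC correction (-0.19, adjusted p = 0.286). UTP3 averaged 22.4 ± 1.36 FPKM in DON and 17.2 ± 2.33 FPKM in vehicle (limma adjusted p = 0.0449). That rise was lost without any library other than vehicle 3, at adjusted p up to 0.104, and with the GC correction (0.0581).

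The other 11 small-subunit factors did not pass. They are NOP14, the scaffold proteins UTP15, UTP18, WDR43, WDR75 and HEATR1, the U3 protein RRP9, and the later factors RRP12, BYSL, PNO1 and TSR1. TSR1 had 12.2, 13.6 and 12.5 FPKM in DON, against 12.0, 13.6 and 12.2 FPKM in vehicle, with a 95% interval of -0.20 to 0.23 (limma adjusted p = 0.906). PNO1, the partner of NOB1, had 14.8, 17.4 and 18.7 FPKM in DON, against 15.9, 14.2 and 23.6 FPKM in vehicle (limma adjusted p = 0.873). RRP9 averaged 16.7 ± 3.29 FPKM in DON and 20.3 ± 0.955 FPKM in vehicle (0.144), and passed as lower without DON 1 (adjusted p = 0.0138).

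Among factors of the large subunit, the related GTPases GNL2 and GNL3 rose. GNL3L, a relative outside the 55, did not pass (log2 fold change -0.19, limma adjusted p = 0.208). GNL2 had 29.4, 29.9 and 27.0 FPKM in DON, against 15.8, 17.5 and 15.7 FPKM in vehicle, a 1.76-fold rise with no overlap (log2 fold change 0.78 ± 0.09 SE, limma adjusted p = 0.000743). GNL3, also called nucleostemin, had 65.1, 61.1 and 55.3 FPKM in DON, against 42.3, 47.2 and 42.6 FPKM in vehicle (0.45 ± 0.09 SE, limma adjusted p = 0.00985). MRTO4, which holds the place of the ribosomal stalk during assembly, fell. It had 19.6, 18.6 and 16.7 FPKM in DON, against 34.8, 31.8 and 29.4 FPKM in vehicle (-0.78 ± 0.10 SE, limma adjusted p = 0.00139). Every library of GNL2, GNL3 and MRTO4 lay on its own group's side.

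BOP1, PES1 and WDR12 form the PeBoW complex of large-subunit processing. BOP1 had 14.4, 11.8 and 10.0 FPKM in DON, against 21.0, 19.2 and 15.8 FPKM in vehicle, and fell (log2 fold change -0.59 ± 0.16 SE, limma adjusted p = 0.0229). The fall was -0.25 with the GC correction (adjusted p = 0.0407), and the call was lost without DON 2, DON 3, vehicle 1 or vehicle 2, at adjusted p up to 0.0779. PES1 averaged 35.1 ± 6.41 FPKM in DON and 37.5 ± 4.85 FPKM in vehicle (limma adjusted p = 0.643), and WDR12 averaged 27.2 ± 1.92 FPKM in DON and 28.6 ± 4.69 FPKM in vehicle (0.757). The ratio of BOP1 to PES1 was close among libraries of a group, at 0.347, 0.336 and 0.349 in DON, against 0.508, 0.489 and 0.492 in vehicle.

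RRS1, which helps bring in the 5S particle, averaged 17.5 ± 2.25 FPKM in DON and 23.5 ± 1.78 FPKM in vehicle, and fell (limma adjusted p = 0.0288). Without DON 2, DON 3, vehicle 1 or vehicle 2 it was not called, at adjusted p up to 0.111. The other large-subunit genes did not pass, namely the RNA methyltransferase NOP2, NOP16, RRP1, RRP1B, NOC2L and NOC3L besides PES1 and WDR12. NOC2L averaged 29.7 ± 4.30 FPKM in DON and 36.4 ± 4.73 FPKM in vehicle (limma adjusted p = 0.144), and passed as lower without DON 1 (0.0471). NOC3L averaged 9.91 ± 1.07 FPKM in DON and 12.1 ± 1.38 FPKM in vehicle (0.122), and passed as lower with the GC correction (0.0136).

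Of the 33 genes that did not pass, 19 had a 95% interval of the log2 fold change inside -0.5 to 0.5. For the other 14 a change of that size was not bounded by these data. The fitted changes of the 33 lay between -0.34 and 0.29.

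Transcript GC content moved with the changes. Across the 55 genes, Spearman's rho between log2 fold change and GC content was -0.32, and across all tested genes with a GC value it was -0.26. These are descriptions over genes measured in the same 6 libraries. The deviation of a library from its group mean correlated with GC content at 0.505 in DON 1, -0.417 in DON 2 and -0.41 in DON 3, and at 0.228, 0.303 and -0.401 in vehicle 1, 2 and 3. With each library's trend on GC removed, rho over the 55 genes was -0.05, and 20 of the 22 calls held. The smaller rho is built into this correction and is no result. The correction also removes any effect of DON that follows GC content. NOC4L and UTP3 were lost and NOC3L was gained.

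**Figure D4:**
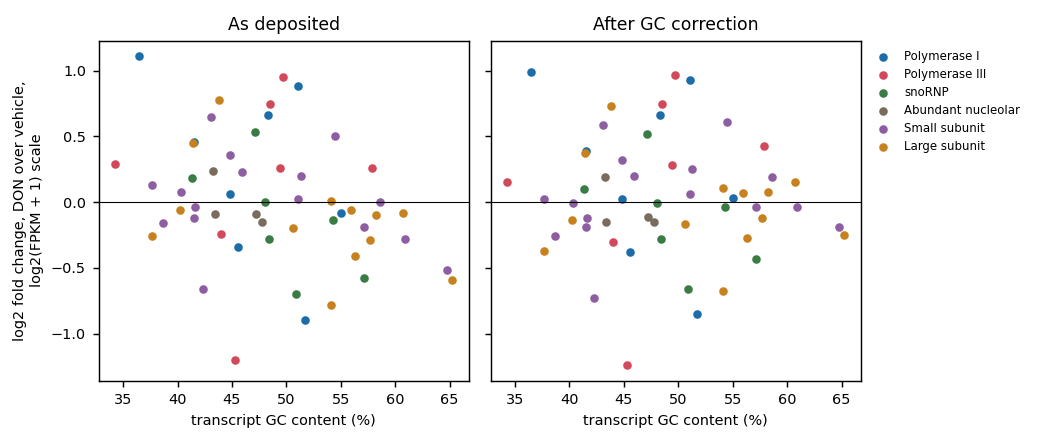
Log2 fold change (DON over vehicle, log2(FPKM + 1) scale) of the 55 genes against the GC content of their longest annotated transcript, as deposited and after a GC correction. The downward tilt at the left, with a rho of -0.32, is near absent at the right, where rho is -0.05, because the correction removes it by design. The outermost genes POLR3K and TAF1D keep their places.

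Several of these genes carry snoRNA genes in their introns, a feature the list did not use. In GENCODE release 29, 9 of the 55 hold 33 snoRNA genes on their own strand, among them TAF1D with 8, NOP56 and GNL3 with 5 each and NOP58 with 4. Of these 9, 2 rose (TAF1D and GNL3), 1 fell (NOP56) and 6 did not pass, with a median log2 fold change of 0.02. The other 46 had 11 higher and 8 lower, with a median of -0.06. Called were 33.3% of the 9 and 41.3% of the 46, beside 38.9% of all tested genes, so this split is a description. Exons of 23 genes overlap an exon of a gene on the opposite strand, TAF1D and POLR3K among them. Whether strand was used in computing FPKM is not given in the sources used here, so reads of such partners may be included. Exons of 3 genes, HEATR1, NOP2 and the called gene RRS1, overlap an exon of another gene on the same strand. Use of strand would not separate those reads.

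The promoter table held 46 of the 55 genes. Those without an entry are POLR1E, POLR3D, POLR3G, NOP58, NOLC1, RRP12, BOP1, RRP1B and RRS1. The E-box CACGTG, which reads the same on both strands, was found in 17 of 46 promoters (37.0%), beside 7.43% of all 27305 promoters of that length. The ETS-type CCGGAAG, searched on both strands, was found in 16 of 46 (34.8%), beside 10.7% of all. The C/EBP-ATF type TGATGNAA was found in 0 of 46, beside 3.67% of all. None of the 3 sequences contains another. By call, the E-box was in 3 of 11 promoters of genes that rose (27.3%), 2 of 7 of genes that fell (28.6%) and 12 of 28 of genes that did not pass (42.9%). The ETS-type sequence was in 5 of 11, 0 of 7 and 11 of 28 of the same groups. These shares describe letters in a window, and all promoters include those of non-coding genes, which differ in base composition.

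Other genes of the pathway, from lists of known members, also moved in both directions. Of 146 such genes outside the ribosomal proteins and MYC-family regulators, all tested, 29 rose and 22 fell (34.9% called, median log2 fold change 0.00). Of all tested genes 38.9% were called, 18.3% higher and 20.6% lower, and the counts of each list below stand beside these shares. With no filter on low values 12 of the called genes named here outside the 55 lost their call, at limma adjusted p of 0.0587 to 0.22. They are POLR1G, POLR1H, TAF1A, POLR3GL, POLR2E, NAF1, ZNHIT3, EXOSC1, EXOSC4, RPL39, RPS15 and MXI1. Other polymerase I genes had 3 of 7 higher and 3 lower (median log2 fold change -0.24). Other polymerase III genes had 3 of 20 higher and 3 lower (median -0.16). Both medians are opposite in sign to the 0.26 of the polymerase I and polymerase III classes of the 55. With the GC correction they were -0.25 and 0.05, beside 0.21 and 0.28 for those classes, and other polymerase I genes had 1 higher and 2 lower. POLR1H, a small polymerase I subunit, had 38.1, 29.9 and 31.2 FPKM in DON, against 24.0, 26.0 and 24.0 FPKM in vehicle, and rose (limma adjusted p = 0.0266). That call was lost without DON 3 or any 1 vehicle library, at adjusted p of 0.0532 to 0.0769. BRF2, a TFIIIB subunit for the small nuclear RNA type of promoter, had 19.8, 15.8 and 15.6 FPKM in DON, against 6.08, 10.3 and 7.01 FPKM in vehicle, a 2.18-fold rise (limma adjusted p = 0.00525). MAF1, the repressor of polymerase III, had 142, 118 and 114 FPKM in DON, against 154, 149 and 122 FPKM in vehicle, and did not pass (limma adjusted p = 0.310). Of the 5 subunits shared by all 3 nuclear polymerases 0 rose and 1 fell (median log2 fold change -0.42). That 1 is POLR2E, which had 30.0, 23.9 and 24.1 FPKM in DON, against 38.7, 37.1 and 34.3 FPKM in vehicle (limma adjusted p = 0.0139). That call was lost without DON 2 (0.0639) or DON 3 (0.0512). All 5 shared subunits had a negative log2 fold change. With the GC correction 2 of the 5 were called lower, POLR2E and POLR2K, and the median was -0.28.

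Assembly factors of snoRNPs had 1 of 12 higher and 5 lower (median log2 fold change -0.15). TCOF1, which supports polymerase I transcription, had 10.3, 10.4 and 11.0 FPKM in DON, against 15.7, 16.1 and 16.4 FPKM in vehicle. All DON libraries were lower and TCOF1 fell (-0.56 ± 0.08 SE, limma adjusted p = 0.00193). NAF1, an H/ACA assembly factor, had 7.22, 6.85 and 7.80 FPKM in DON, against 15.2, 10.8 and 9.95 FPKM in vehicle, and fell (limma adjusted p = 0.0190). ZNHIT3, a C/D assembly factor, had 55.4, 57.3 and 55.7 FPKM in DON, against 29.9, 41.7 and 41.7 FPKM in vehicle, and rose (limma adjusted p = 0.0160). Without DON 2 NAF1 (limma adjusted p = 0.0734) and ZNHIT3 (0.0624) were not called.

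Other small-subunit factors had 7 of 43 higher and 4 lower. RIOK3, a kinase of late small-subunit maturation, had 194, 197 and 196 FPKM in DON, against 80.8, 82.4 and 78.8 FPKM in vehicle (log2 fold change 1.27 ± 0.07 SE, limma adjusted p = 6.29e-05). NGDN had 65.8, 56.3 and 48.9 FPKM in DON, against 26.1, 26.7 and 22.9 FPKM in vehicle, and rose (1.14, limma adjusted p = 0.000719). NOL6, an early processome protein, had 5.08, 4.92 and 3.65 FPKM in DON, against 12.5, 11.5 and 9.58 FPKM in vehicle, and fell (-1.14, limma adjusted p = 0.00131). Each of the 3 changed by more than 2-fold, and in none did the groups overlap.

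Other large-subunit factors had 12 of 45 higher and 4 lower (median log2 fold change 0.15). RSL24D1, which takes part in late nuclear assembly, had 285, 254 and 207 FPKM in DON, against 123, 136 and 105 FPKM in vehicle, and rose (1.02, limma adjusted p = 0.00206). CEBPZ, a relative of the NOC proteins, had 99.3, 105 and 94.3 FPKM in DON, against 45.1, 52.1 and 51.0 FPKM in vehicle, and rose (1.00, limma adjusted p = 0.000327). URB2 had 2.43, 2.12 and 1.65 FPKM in DON, against 4.81, 4.48 and 4.12 FPKM in vehicle, and fell (-0.84, limma adjusted p = 0.00286).

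The RNA exosome, which trims precursor ribosomal RNA, had 3 of 14 higher and 2 lower. Its nuclease DIS3 had 14.7, 16.6 and 15.6 FPKM in DON, against 10.9, 10.2 and 10.4 FPKM in vehicle, and rose (limma adjusted p = 0.00345). EXOSC1, of its cap, had 27.1, 32.9 and 33.2 FPKM in DON, against 15.5, 17.1 and 23.6 FPKM in vehicle, and rose (limma adjusted p = 0.0141), a call lost without DON 2 (0.0586) or vehicle 2 (0.0517). EXOSC4, of its ring, had 36.2, 28.3 and 19.1 FPKM in DON, against 43.3, 49.5 and 39.0 FPKM in vehicle, and fell (limma adjusted p = 0.0468). Leaving out any library but DON 1 ended the EXOSC4 call, at adjusted p up to 0.136.

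Cytosolic ribosomal proteins had 9 of 77 tested higher and 2 lower (median log2 fold change 0.12). That is 14.3% called, a smaller share than the 38.9% of all tested genes. RPL41, the shortest ribosomal protein, had 410, 425 and 241 FPKM in DON, against 66.3, 86.9 and 31.1 FPKM in vehicle (2.60 ± 0.39 SE, limma adjusted p = 0.00256). RPL39 had 715, 818 and 556 FPKM in DON, against 404, 480 and 405 FPKM in vehicle, and rose (limma adjusted p = 0.0137, lost without vehicle 1 at 0.0523). RPS15 had 635, 479 and 616 FPKM in DON, against 912, 802 and 741 FPKM in vehicle, and fell (limma adjusted p = 0.0258). The RPS15 call was lost with the GC correction (0.0872) and without DON 2, vehicle 1 or vehicle 2, at adjusted p up to 0.0892. Ribosomal protein genes have near-identical copies and some very short messages, so their FPKM values are uncertain. MYC, a transcription factor known to drive ribosome genes, had 44, 50.2 and 65.8 FPKM in DON, against 39.8, 33.7 and 50.5 FPKM in vehicle. Its groups overlapped and it did not pass (0.36, 95% interval -0.09 to 0.81, limma adjusted p = 0.177). Its partner MAX had 34.4, 40.1 and 38.8 FPKM in DON, against 24.8, 25.7 and 29 FPKM in vehicle, and rose (limma adjusted p = 0.00828). MXI1, which competes for MAX, had 20.9, 31.1 and 35.6 FPKM in DON, against 12.7, 12.2 and 20.0 FPKM in vehicle, and rose (limma adjusted p = 0.0230). The MXI1 call was lost without DON 2, DON 3, vehicle 1 or vehicle 2, at limma adjusted p up to 0.0815.

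**Figure D5:**
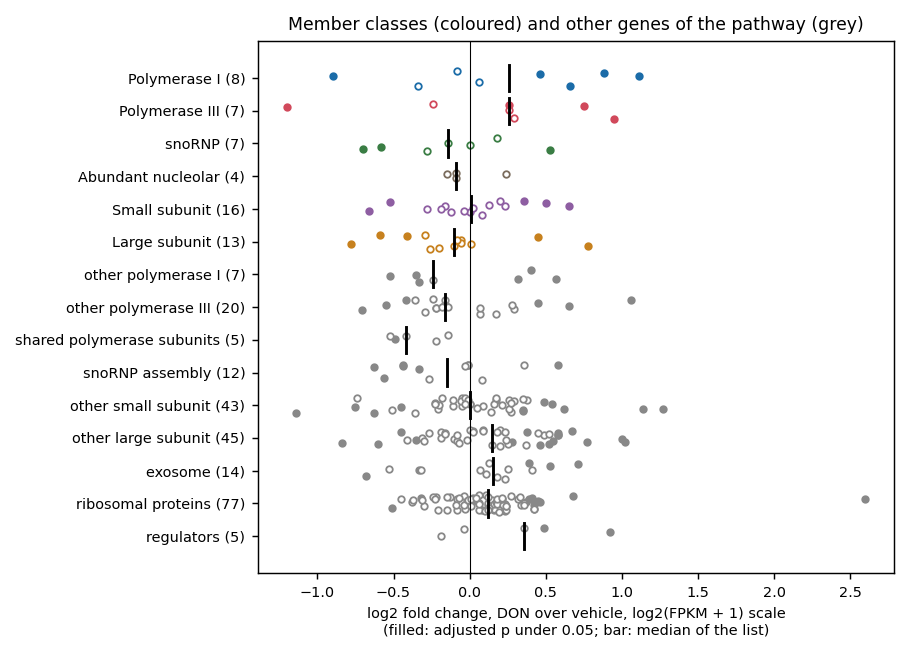
Log2 fold change (DON over vehicle, log2(FPKM + 1) scale) of each tested gene in the 6 classes described here (coloured) and in 9 further lists of the pathway (grey), with the number of genes in brackets and a bar at the median. List medians lie between -0.42 and 0.36, and most lists hold filled points, which passed at adjusted p under 0.05, on both sides of 0.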

How the data were processed

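The authors deposited FPKM values, in 1 table of genes by libraries. The submitters' processing notes name STAR and hg19. For the program behind FPKM, its annotation and its use of strand, nothing is given in the sources used here. Libraries were poly(A)-selected, directional and read as single 75 bp ends, per the labels' protocols. Columns named control were taken as vehicle by their replicate number. Of 26228 rows, 41 with a failure mark and 4 that share a symbol were left out. The lowest value is 0.01 FPKM. Depth is unknown.

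Values were tested as log2(FPKM + 1), which understates changes of low genes, in limma 3.58.1 (R 4.3.3) with an intensity trend, two-sided, with no replicate block and with Benjamini-Hochberg adjustment over 11468 genes. The fit was tested on simulated data. Alternatives to these choices are listed at the end. Same-numbered libraries were not paired: the correlations of their deviations were 0.254, -0.184 and 0.502. The genes and lists were chosen with earlier results of these data known. Genes with values in each library are, per class, the 3 largest called changes, the most abundant gene and called genes against the class median. They also include a short list of core genes, up to 3 called genes per further list, and MYC and MAF1. Outside this rule, values in each library are given for POLR1C, POLR1G, POLR3E, TSR1, PNO1 and TAF1B. Some genes under this rule are not reported here. GC content came from GENCODE release 29 transcripts matched by symbol. Summaries used pandas 2.3.3 and exact tests scipy 1.17.1.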

Additional observations from a re-analysis of the deposited data

How the results depend on the processing

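Each choice was changed in turn: the pseudocount (0.1), the filter (none, or 5 FPKM), the scaling (median of ratios, or quantiles), the intensity trend (left out), a replicate block, and each library (left out). A GC correction was added after seeing the data. Among all tested genes, 2096 were higher and 2361 lower in DON. Without a filter the counts were 1391 and 1550, with more genes tested, and among the 55 genes 7 and 4 in place of 13 and 9. Leaving out 1 library gave 1212 to 2133 higher and 1483 to 2522 lower among all genes, the fewest without DON 2, and 8 to 12 higher and 5 to 11 lower among the 55. The 5 lower were seen without DON 2, DON 3 or vehicle 2. Of the 22 calls 13 held whichever library was left out. The replicate block gave 13 higher and 11 lower among the 55, with DKC1 and POLR1C gained, and MYC was called higher under it (limma adjusted p = 0.0287). The polymerase I median was 0.21 under the GC correction and the polymerase III median 0.33 under quantile normalization, beside 0.26 for both. Over the leave-one-out fits the snoRNP median ranged from -0.25 to -0.12 and the large-subunit median from -0.23 to -0.06. The cause of these shifts was not tested. Of the 769 values of the 55 genes under these alternatives, 685 kept direction and call, 50 lost the call, 8 gained it and 26 changed sign without being called. No called gene changed sign. Same-numbered libraries did not all correlate, and 1 of 3 DON libraries correlated best with the vehicle library of its own number.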
